A study of Mus musculus with 11 samples.

Results

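Chemotherapy plus quizartinib was compared with vehicle in ST-HSCs (short-term haematopoietic stem cells) sorted from the bone marrow of C57BL/6j mice whose niche kept the chemokine Cxcl12. The comparison was defined by the sample labels and holds 6 of the series' 11 RNA sequencing libraries. The vehicle group was libraries 240, 253 and 265, and the treated group was libraries 252, 262 and 266. All 6 hosts were labelled CXCL12 WT (titled Cre_neg), and all had been transplanted with acute myeloid leukaemia marrow carrying Flt3-ITD and lacking Tet2, so the vehicle group carried the same leukaemia. The treated hosts received cytarabine, doxorubicin and quizartinib together, so no effect can be assigned to 1 drug. The other 5 libraries came from hosts labelled CXCL12 KO (Cre_pos), of which 2 received vehicle and 3 the same drugs. Doses, the time between treatment and sorting, the Cre driver, the ages of the mice and whether each library is 1 animal are not given in the sources used here, so the p-values reflect the spread among these libraries alone, which may be technical.

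ST-HSCs are multipotent cells that feed blood formation for weeks after transplantation, and leukaemic cells can carry the same surface markers. Cytarabine is a nucleoside that is phosphorylated inside the cell and then stalls DNA synthesis. Doxorubicin traps topoisomerase II on DNA and causes strand breaks, and quizartinib blocks the FLT3 receptor kinase, which the internal tandem duplication keeps active and which signals through STAT5, ERK and PI3K. CXCL12, made by niche cells, holds stem cells in the marrow through the receptor CXCR4, and p38 MAPK is a stress-activated kinase pathway. Transcript levels measure neither kinase activity nor drug uptake.

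The 2 groups of libraries differed in technical measures as well as in treatment. Gene counts were 8.13 to 20.4 M in the vehicle and 22.4 to 31.1 M in the treated libraries. Reads outside annotated genes made up 17.97 to 28.79% of the reads in the vehicle and 6.33 to 16.58% in the treated libraries, and neither measure overlapped between the groups (exact permutation test on both sides, p = 0.1 for each, the smallest that 3 against 3 can give). Across genes, the Spearman rho between transcript length and a library's expression relative to the other libraries was 0.03 to 0.11 in the vehicle and -0.44 to -0.29 in the treated group. Vehicle libraries 253 and 265 stood apart on the first 2 principal components of the 6 libraries, which held 46.3% and 26.4% of the variance. These measures cannot be told apart from treatment by design.

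**Figure D1:**
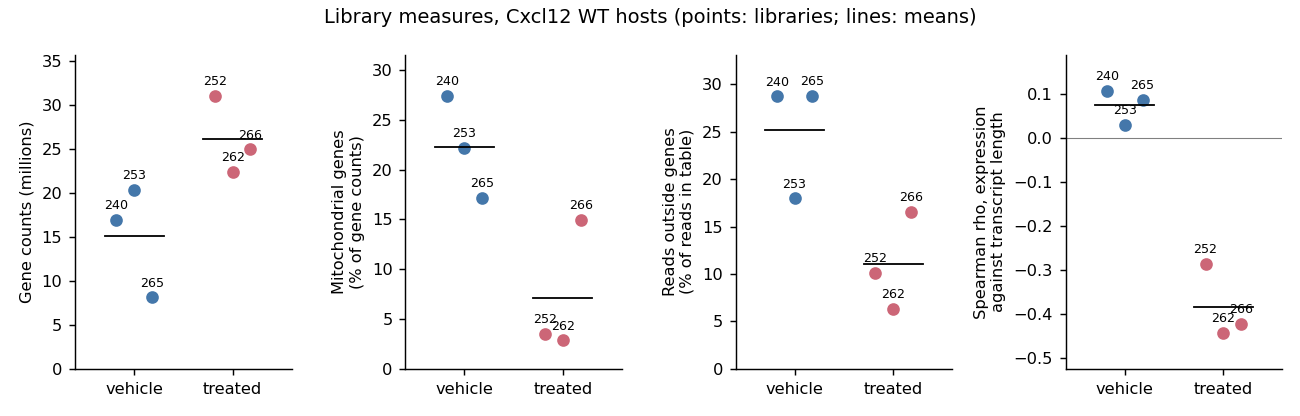
Gene counts (in units of M), the share of gene counts from mitochondrial genes, the share of reads outside genes and the Spearman rho of expression against transcript length, for each of the 6 libraries (points, numbered) with group means (lines). No measure overlapped between vehicle and treated libraries.

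The labelled cell type was checked against its markers. Cd34, present on ST-HSCs, was at 455, 111 and 231 CPM (library-size-scaled counts, by TMM) in vehicle libraries 240, 253 and 265 and 222, 393 and 169.6 CPM in treated libraries 252, 262 and 266, the order used throughout. Kit, the stem cell factor receptor, was at 79, 73.9 and 102 and 50.7, 37.7 and 20.5 CPM. Ly6a, which encodes Sca-1, was at 61.5, 1.11 and 10.2 CPM in the vehicle and 433, 128 and 70.0 CPM in the treated libraries. Sca-1 is a defining marker of the sort, and its transcript was near 0 in vehicle library 253. The same library was near 0 for the stem cell genes Procr, Hlf and Mycn (0.0583, 0.0583 and 0.175 CPM), which reached 29.1, 21.4 and 93.0 CPM in vehicle library 240. Slamf1, a marker of long-term stem cells, had no count in any vehicle library and was at 0.217, 1.59 and 2.48 CPM in the treated ones. Granule genes of myeloid cells were abundant in all 6 libraries: Mpo, myeloperoxidase, was at 7854, 15768 and 9510.3 CPM and 3168, 4612 and 6664 CPM. The deletion of Tet2 could not be read from its total, 18.4, 11.7 and 15.9 and 23.5, 14.4 and 10.6 CPM, because which exons were removed and the share of leukaemic cells in the sort are not given in the sources used here.

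Of 16639 genes tested with edgeR's quasi-likelihood method, 0 (0%) had a Benjamini-Hochberg adjusted p under 0.05, and the lowest adjusted p was 0.0849. An unadjusted p under 0.05 was found for 3035 genes (18.2%), of which 1685 were higher in treated libraries (10.1%) and 1350 lower (8.11%). DESeq2's Wald test on the same genes called 1069 (6.42%), 499 higher (3.0%) and 570 lower (3.43%), and limma voom called 0. With the percentage of reads outside genes added to the model as a covariate, edgeR called 2100 genes. That percentage did not overlap between the groups, so values with this covariate, here and below, extrapolate and cannot separate it from treatment. Without the covariate and without vehicle library 240, edgeR called 190 (156 higher and 34 lower). The treated libraries all lay above the vehicle libraries for 2917 genes (17.5%) and all below them for 1685 genes (10.1%), and these 2 shares are the background for each count of non-overlapping members below. A positive log2 fold change was found for 52.6% of all genes, and their median was 0.09. No gene passed the main test, so the values below describe these 6 libraries, and log2 fold changes are given with their standard errors (SE).

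The fold changes ran with transcript length. In the bin of genes with the shortest transcripts among 10 bins (median 547 bases) the median log2 fold change was 0.81, and in the bin with the longest (11499 bases) it was -0.37. Across 16586 genes the Spearman rho of fold change with length was -0.31, a description in which genes are not independent. Each list, and some single genes, are therefore also given relative to the median of all genes after the trend of each library with length was removed. That correction left the shortest bin at -0.55, below the -0.26 to -0.17 of the other bins, so it lowers lists of very short transcripts.

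**Figure D2:**
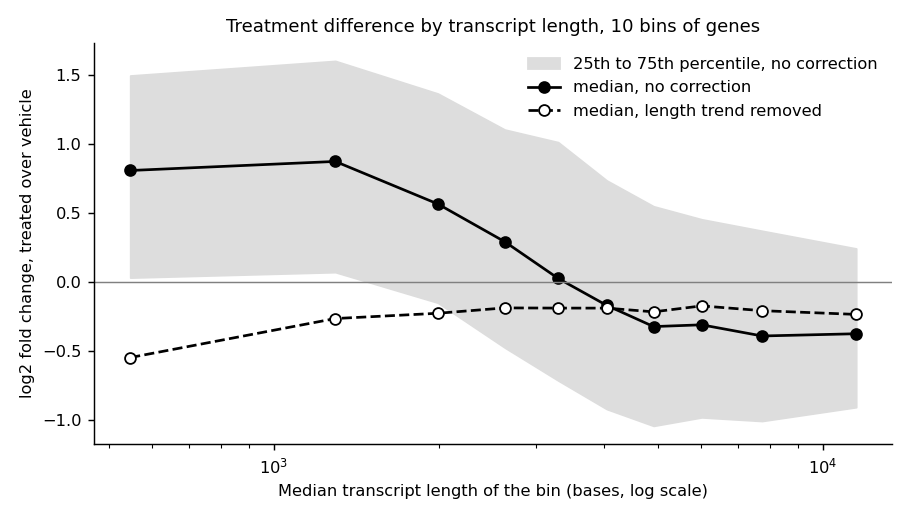
Median log2 fold change (treated over vehicle) in 10 bins of genes by transcript length in bases (log axis), without correction (filled, shaded 25th to 75th percentile) and with the length trend removed (open). Uncorrected medians run from 0.81 in the shortest bin to -0.37 in the longest.

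Promoter windows of members of the gene groups described next are shown for their motifs. Windows run from 250 bases before to 50 after the start of a gene (RefSeq, build GRCm38.p6, which is not the build of the counts). NRF1 and ETS factors such as GABP are known regulators of nuclear genes for mitochondrial proteins, and interferon regulatory factors bind the interferon-stimulated response element (ISRE). The 3 motifs searched on both strands were an NRF1 core (GCGCANGCG), an ETS core (CCGGAAGT) and an ISRE core (GAAANNGAA). Windows came from nuclear oxidative phosphorylation (NRF1), mitochondrial ribosomal proteins (ETS) and MHC class I (ISRE). They were first limited to those that hold the motif, and the members with the smallest p among these are shown. They are not the members with the smallest p of the whole lists. In the MHC class I list, for example, Psmb9 and Psme2 had a smaller p but no window with the motif. Capitals mark the motif or its reverse complement.
Cycs (chr6:50566520-50566819, minus strand), NRF1 core: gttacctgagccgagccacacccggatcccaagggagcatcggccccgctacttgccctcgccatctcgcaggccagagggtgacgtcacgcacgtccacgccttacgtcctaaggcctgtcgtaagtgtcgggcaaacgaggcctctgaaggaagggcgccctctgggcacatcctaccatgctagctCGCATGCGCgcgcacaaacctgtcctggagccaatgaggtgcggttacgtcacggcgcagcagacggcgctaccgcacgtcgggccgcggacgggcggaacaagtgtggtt
Atp5c1 (chr2:10080383-10080682, minus strand), NRF1 core: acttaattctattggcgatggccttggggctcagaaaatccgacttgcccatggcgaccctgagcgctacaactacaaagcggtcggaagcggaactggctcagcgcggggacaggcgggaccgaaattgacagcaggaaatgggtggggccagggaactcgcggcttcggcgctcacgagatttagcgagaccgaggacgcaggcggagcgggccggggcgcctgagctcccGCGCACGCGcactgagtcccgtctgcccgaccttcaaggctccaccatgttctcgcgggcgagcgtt
Mrpl51 (chr6:125191950-125192249, plus strand), ETS core: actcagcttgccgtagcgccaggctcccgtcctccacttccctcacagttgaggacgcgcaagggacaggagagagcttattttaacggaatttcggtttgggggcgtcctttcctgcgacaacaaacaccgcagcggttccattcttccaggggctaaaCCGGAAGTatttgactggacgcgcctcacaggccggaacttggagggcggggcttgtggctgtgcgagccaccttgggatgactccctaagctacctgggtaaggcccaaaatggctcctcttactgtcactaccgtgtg
B2m (chr2:122147437-122147736, plus strand), ISRE core: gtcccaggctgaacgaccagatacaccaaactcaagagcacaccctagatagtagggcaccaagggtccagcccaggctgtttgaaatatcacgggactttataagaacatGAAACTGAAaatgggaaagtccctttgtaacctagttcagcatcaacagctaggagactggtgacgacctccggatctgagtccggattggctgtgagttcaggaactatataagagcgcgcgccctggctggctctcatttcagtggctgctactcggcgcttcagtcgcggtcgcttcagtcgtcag
Erap1 (chr13:74639603-74639902, plus strand), ISRE core: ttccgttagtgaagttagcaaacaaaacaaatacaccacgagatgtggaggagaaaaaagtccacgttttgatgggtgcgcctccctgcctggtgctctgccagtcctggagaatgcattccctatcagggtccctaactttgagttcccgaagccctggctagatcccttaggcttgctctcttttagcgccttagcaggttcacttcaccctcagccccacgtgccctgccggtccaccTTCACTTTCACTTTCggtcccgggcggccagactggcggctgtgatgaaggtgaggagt
Windows were found for 63 of the 76 nuclear oxidative phosphorylation genes, 68 of the 76 mitochondrial ribosomal genes, 26 proteasome genes and 20 MHC class I genes. The NRF1 core was in 22 of 68 windows of the first list (32.4%), 16 of 74 of the second (21.6%) and 6 of 28 of the proteasome list (21.4%), against 6.25% of all 32851 windows. The ETS core was in 5 (7.35%), 12 (16.2%) and 7 (25%) of the same windows, against 3.89% of all. The ISRE core was in 5 of 22 windows of the MHC class I list (22.7%) and 26 of 49 of the interferon-stimulated list (53.1%), against 8.56% of all. Median GC contents were 58.5% in each of the first 2 lists, 56.2% in the proteasome list and 52.7% over all windows, and the part of base composition in these shares was not tested. A match is a description of the letters, not of a bound site. Of the 5 genes shown, 4 were higher in every treated library and Erap1 was lower in every one. They were chosen for a small p in this comparison, so that separation follows largely from the choice and says nothing of the motifs.

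Nuclear genes for mitochondrial proteins were higher in treated libraries. Of 76 nuclear genes of oxidative phosphorylation, which build the respiratory chain and ATP synthase, 71 had a positive log2 fold change and 60 lay above the vehicle group in every treated library, with 0 below. The median was 1.08. Of 76 mitochondrial ribosomal protein genes, which translate the mitochondrial genome's messages, 74 were positive and 59 lay apart and higher, with a median of 1.03. By adjusted p, edgeR called 0 genes in either list, and DESeq2 called 7 and 8. Cycs, cytochrome c (ENSMUSG00000063694.6), whose promoter is shown above, was at 118, 118 and 100.2 CPM in the vehicle and 458, 359.8 and 394 CPM in the treated libraries, a log2 fold change of 1.85 ± 0.39. Sdhb, the iron-sulphur subunit of complex II, was at 187, 167 and 195 and 537, 500.0 and 536 CPM (1.52 ± 0.33). In both genes the lowest treated library exceeded the highest vehicle library more than the libraries of a group differed. Atp5c1, the gamma subunit of ATP synthase, was at 352, 398 and 287 and 693, 763 and 699.7 CPM (1.05 ± 0.30). Ndufs5, of complex I, was at 44, 40.4 and 50.2 and 147, 112 and 140.1 CPM, and Mrpl51, of the large mitochondrial ribosomal subunit, at 90.8, 107 and 111 and 264, 234 and 282 CPM. Relative to all genes with the length trend removed, the medians were 0.31 for oxidative phosphorylation and 0.57 for mitochondrial ribosomal proteins. On the same scale Cycs was at 1.92 and Atp5c1 at 0.45. With the percentage of reads outside genes as a covariate, list medians relative to all genes were 1.66 and 1.52, against 0.99 and 0.94 without. Those values extrapolate, because that percentage did not overlap between the groups. Without vehicle libraries 253 and 265, 72 and 70 members lay above library 240 in every treated library, where the share of all genes was 31.4%.

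The mitochondrial genome's own messages lay on the other side. All 13 mitochondrially encoded protein genes had a negative log2 fold change, with a median of -1.44, and 3 lay apart and lower. mt-Nd5, a complex I subunit, was at 17089, 14852 and 10794 CPM in the vehicle and 1268, 991 and 8823 CPM in the treated libraries. mt-Co1, a subunit of cytochrome c oxidase, was at 72174, 56594 and 48739.5 and 6568, 6569 and 49723 CPM. Treated libraries 252 and 262 were several-fold below every vehicle library, while treated library 266 was close to the vehicle group and overlapped it in 10 of the 13 genes. Without library 266 the list median relative to all genes was -3.16, against -1.53 with it. The share of mitochondrial genes in the gene counts was 17.2 to 27.4% in the vehicle libraries and 2.86, 3.55 and 14.95% in the treated ones, and it moved with the share of reads outside genes. With that share as a covariate the list median relative to all genes was -0.98.

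**Figure D3:**
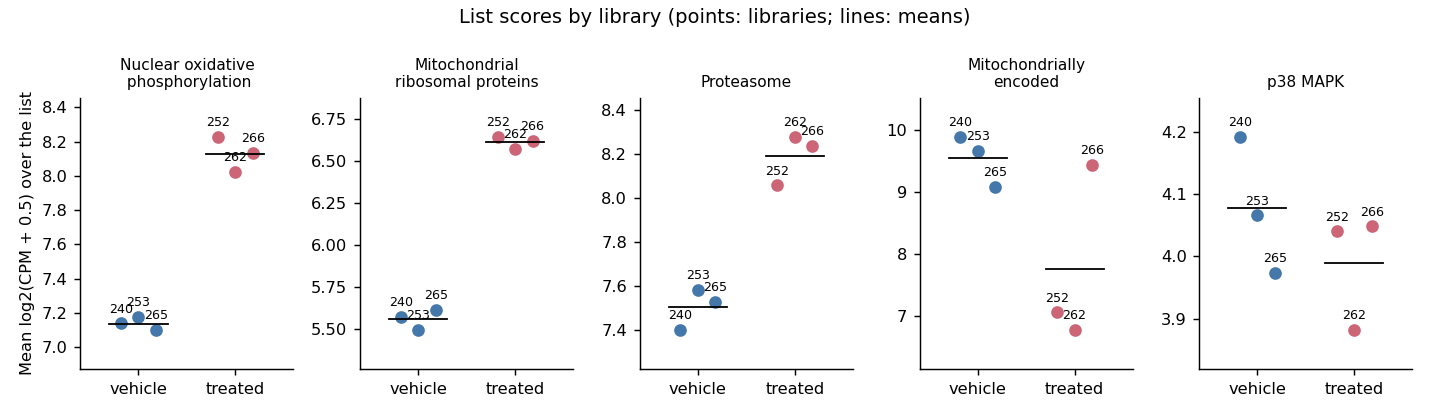
Mean log2(CPM + 0.5) over the members of 5 lists in each library (points, numbered) with group means (lines). The nuclear oxidative phosphorylation, mitochondrial ribosomal and proteasome scores do not overlap between groups, library 266 lies with the vehicle libraries for the mitochondrially encoded list, and the p38 scores overlap.

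Other short, abundant housekeeping genes were also higher. Of 80 cytosolic ribosomal protein genes 79 were positive and 49 lay apart and higher, with a median of 0.80. Relative to all genes with the length trend removed this was 0.17, and it turned to -0.11 or -0.17 when that correction was combined with leaving out libraries 253 and 265 or with limma voom. With reads outside genes as a covariate it was 1.69 relative to all genes, against 0.71 without. Of 32 proteasome genes 27 were positive and 20 lay apart and higher, with a median of 0.82, or 0.50 relative to all genes with the length trend removed. Psma5, an alpha ring subunit, was at 126, 108 and 156 and 325, 366 and 328 CPM (1.39 ± 0.32), and relative to all genes with the length trend removed it was at 0.48. Psmg2, a chaperone of proteasome assembly outside the list, was at 60.8, 35.5 and 38.8 and 127, 153 and 153 CPM (1.68 ± 0.36). Of the 2 proteasome-list members that lay apart and lower, Vcp, the ATPase that extracts ubiquitinated proteins, was at 368, 471 and 471 CPM in the vehicle and 173, 179 and 177 CPM in the treated libraries (-1.31 ± 0.25).

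Antigen presentation genes were mostly higher. In the list of MHC class I and the immunoproteasome, the inducible proteasome that cuts peptides for display, 16 of 22 genes were positive, 10 lay apart and higher and 2 apart and lower, with a median of 0.45. Psmb9, an inducible catalytic subunit, was at 213, 229.8 and 119 and 899, 529 and 555 CPM (1.82 ± 0.52), and Psmb8, another, at 296, 231 and 224 and 882, 611 and 603 CPM (1.48 ± 0.50). Psme2, of the proteasome activator, was at 301, 209 and 211 and 903, 546 and 581 CPM. In each of these the treated libraries were all above the vehicle libraries, with library 252 the highest. B2m, the light chain of class I molecules whose promoter is shown above, was at 2338, 2478 and 1260.3 and 6124, 4993 and 4802 CPM (1.39 ± 0.48), and relative to all genes with the length trend removed it was at 0.30. Erap1, which trims peptides, went the other way at 87.1, 61.1 and 137 and 25.9, 33.3 and 20.8 CPM (-1.84 ± 0.64). All 12 MHC class II genes were positive, with a median of 1.31, but only 3 lay apart (25%), or 9 without vehicle library 240 (29.1% of all genes then lay apart and higher). Without vehicle libraries 253 and 265 the count was also 3 (25%), where the share of all genes was 31.4%. H2-Ab1 was at 3359, 1637 and 393 and 9274, 3364 and 4698 CPM, and the spread within groups was wide. Genes of plasmacytoid and classical dendritic cells, which carry MHC class II, summed to 1487, 855 and 816 CPM and 1812, 1121 and 1180.2 CPM. Of these genes 14 of 18 were positive, with 4 apart and higher (22.2%) and 1 lower, or 11 and 1 without library 240. Without libraries 253 and 265, 6 lay apart and higher (33.3%) and 7 lower (38.9%), against 31.4% and 34.6% of all genes. Vehicle library 240 was the highest of its group in both the MHC class II and the dendritic sums. The part of such cells in the MHC class II values was not tested. Of 55 interferon-stimulated genes 36 were positive, with 6 apart and higher and 5 lower. Their median relative to all genes, 0.49, was -0.45 without libraries 253 and 265, -0.05 without treated library 252 and 0.94 without vehicle library 240, where 30 lay apart and higher (54.5%, against 29.1% of all genes). The direction of this list therefore rests on which libraries are used.

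**Figure D4:**
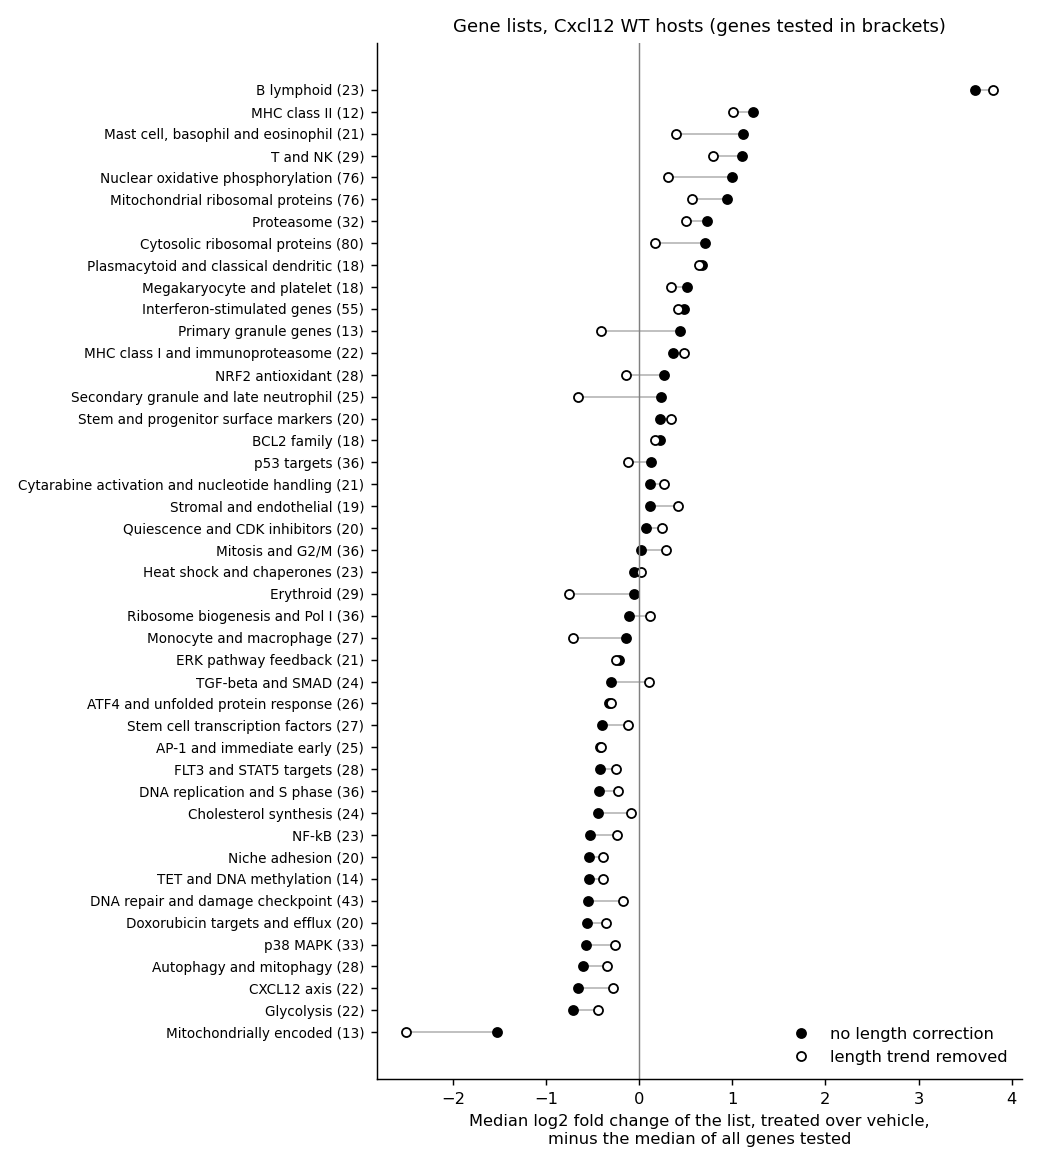
Median log2 fold change (treated over vehicle) of each of the 44 gene lists minus that of all genes, without correction (filled) and with the length trend removed (open), ordered by the uncorrected value. Nuclear oxidative phosphorylation moves from 0.99 to 0.31 and the mitochondrially encoded list from -1.53 to -2.50.

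DNA synthesis genes lay on both sides. Of 36 replication and S phase genes 9 lay apart and higher and 12 apart and lower, shares of 25% and 33.3%, with a median of -0.34. Some enzymes of deoxynucleotide supply were among the higher ones. Tyms, thymidylate synthase, was at 85.4, 59.2 and 81.9 CPM in the vehicle and 190.0, 216 and 262 CPM in the treated libraries (1.56 ± 0.33), and Dut, which removes dUTP, at 112, 94 and 91.1 and 324, 321 and 355 CPM (1.75 ± 0.40). Tk1, thymidine kinase, was at 84.7, 119 and 71.8 and 161, 169 and 218 CPM (0.99 ± 0.35). Relative to all genes with the length trend removed, Tyms was at 1.96 and Tk1 at 1.37. Ribonucleotide reductase, which makes deoxynucleotides, did not share that side: Rrm1 was lower in every treated library, at 239, 500.0 and 224 and 131, 203 and 146 CPM (-1.01 ± 0.50), and Rrm2 overlapped at 187, 463 and 133 and 159.5, 238 and 352 CPM. Replication proteins were found on both sides. Pcna, the sliding clamp, was higher at 227, 252 and 137 and 354, 399 and 355 CPM (0.85 ± 0.30), and Gins2, of the replicative helicase complex, higher at 43, 55.6 and 18.1 and 85.2, 96 and 82.9 CPM (1.17 ± 0.49). Others were lower in every treated library. Chaf1a, which loads histones behind the fork, was at 48.1, 81.2 and 50.5 and 12.5, 15.8 and 25.7 CPM (-1.74 ± 0.40), and Pold1, the catalytic subunit of DNA polymerase delta, at 128, 145 and 187 and 52.1, 63.4 and 56.4 CPM (-1.42 ± 0.36). Mcm3, of the replicative helicase, was at 300.5, 362 and 515 and 142, 207 and 145 CPM (-1.25 ± 0.41). The proliferation marker Mki67 was at 198, 214 and 257 and 183, 134 and 132 CPM (-0.58 ± 0.31), and of 36 mitosis genes 2 lay apart and higher and 1 lower. Of 43 DNA repair genes 2 lay apart and higher and 5 lower, with a median of -0.47, or -0.18 relative to all genes with the length trend removed.

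Genes that handle the drugs gave mixed values. Dck, deoxycytidine kinase, which takes the first step of cytarabine activation, was at 126, 41.1 and 49.3 and 42.1, 51.5 and 46.9 CPM, and the groups overlapped. Slc29a1, the nucleoside transporter that admits cytarabine, was at 63.3, 44.9 and 48.4 and 46.8, 70.6 and 58.6 CPM, and Samhd1, which degrades its active form, at 182, 81.4 and 64.2 and 198, 84.6 and 63.8 CPM. None of the 3 separated the groups. Top2a, a target of doxorubicin, was at 377, 309 and 226 and 268, 207 and 256 CPM. Top2b, the other topoisomerase II, was lower in every treated library, at 149, 145 and 115 and 84.6, 70.7 and 62.4 CPM (-0.91 ± 0.37). Abcc4, an efflux pump, was at 24.7, 80.1 and 36.5 and 20.4, 14.4 and 7.12 CPM (-1.75 ± 0.64), and Abcb1b, a P-glycoprotein gene, at 22.4, 21 and 23.6 and 16, 8.34 and 2.48 CPM (-1.32 ± 0.59). Both pumps were lower in every treated library, with treated library 252 close to the lowest vehicle library. Cbr1, which reduces doxorubicin to its alcohol, was higher at 44.6, 18.3 and 35.8 and 66.1, 84.3 and 64.9 CPM (1.13 ± 0.49). Of the 20 genes of the doxorubicin list 4 lay apart and higher and 5 lower, and of the 21 of the cytarabine list 6 and 2.

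Targets of p53, the transcription factor activated by DNA damage, gave values on both sides: 19 of 36 were positive, 6 lay apart and higher and 5 lower, shares of 16.7% and 13.9%. Cdkn1a, which encodes the inhibitor p21, was at 32.8, 12.7 and 2.96 CPM in the vehicle and 79.4, 64.3 and 55 CPM in the treated libraries (2.03 ± 0.76), and its vehicle values spread widely. Bax, a pore-forming death effector, was at 27.7, 40.5 and 33.6 and 88.2, 60.1 and 82.2 CPM (1.18 ± 0.51), and at 0.38 relative to all genes with the length trend removed. Mdm2, the p53 ligase and target, overlapped at 25, 1.92 and 23.8 and 19.5, 27.6 and 25.5 CPM. Ccng1 and Trp53inp1, both p53 targets, lay apart and lower, at 119, 118 and 41.1 against 30.6, 33.7 and 35.9 CPM and 24.8, 16 and 29.6 against 6.31, 7.24 and 6.14 CPM. The survival genes Bcl2 (128, 119.8 and 66.7 and 95.7, 85.8 and 59.3 CPM) and Mcl1 (234, 165 and 91.6 and 169, 112 and 109 CPM) overlapped between the groups.

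FLT3 and STAT5 pathway genes were lower more often than higher. Of 28 genes 20 were negative, 7 lay apart and lower (25%) and 2 higher, with a median of -0.34. Flt3 itself, the target of quizartinib, was at 340.1, 70.6 and 148 CPM in the vehicle and 255, 190.3 and 113 CPM in the treated libraries, and the groups overlapped. Stat5a (ENSMUSG00000004043.15), a transcription factor that carries the signal, was at 41.9, 140.2 and 76.7 and 25.3, 22.9 and 13.8 CPM (-2.06 ± 0.54), and Stat5b, its paralogue, at 75.5, 70.1 and 101 and 28.6, 29.8 and 19.3 CPM (-1.67 ± 0.44). Their similarity in sequence can make reads hard to assign. Both lay apart and lower. Of the genes STAT5 is known to induce, Pim1, a survival kinase, was at 77, 18.5 and 39.5 and 85.8, 41.5 and 48.5 CPM, Socs2 at 392, 28.1 and 185 and 293, 407 and 264 CPM and Cish at 32.8, 27.5 and 21.2 and 20.6, 26.7 and 17.3 CPM, all with overlapping groups. Myc was at 171, 115 and 174 and 116, 132 and 115 CPM. Ccnd2, a cyclin, was higher in every treated library at 260.1, 218 and 218 and 629.9, 448 and 377 CPM (1.06 ± 0.43), and Pim3 lower at 23.6, 32.3 and 40.4 and 15.3, 15.4 and 7.69 CPM (-1.33 ± 0.47).

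Genes of the p38 MAPK pathway, which the series title names, were lower in part. Of 33 genes tested 10 lay apart and lower (30.3%) and 5 higher (15.2%), with a median of -0.49, or -0.26 relative to all genes with the length trend removed. Of the 33, 12 were positive and 21 negative. On the higher side Mapk12, Dusp8, Hspb1 and Il6 had no vehicle count and some counts in the treated group. The genes with values below were all among those apart and lower, so they do not stand for the whole list. Mapk14 (ENSMUSG00000053436.16), the gene of p38 alpha, was at 209, 139.7 and 216 CPM in the vehicle and 79.1, 80.0 and 65.1 CPM in the treated libraries, giving -1.33 ± 0.37 on the log2 scale (-1.05 relative to all genes with the length trend removed). Mapkapk2, the kinase p38 acts through, was at 222, 515 and 383 and 126, 145 and 127 CPM (-1.49 ± 0.45). Both separated the groups. Map2k4, an upstream kinase, was at 63.6, 108 and 91.7 and 32.9, 31.2 and 30.4 CPM (-1.48 ± 0.44), and Tab1, an activator of p38 alpha, at 32.8, 37.7 and 26.8 and 12.8, 12.6 and 14.4 CPM (-1.29 ± 0.39). Dusp1, a phosphatase that turns the pathway off, was also lower, at 158, 161 and 79.3 and 75.9, 66.3 and 66.9 CPM (-0.93 ± 0.33). Every edgeR adjusted p of these 5 genes was 0.173 or above, and DESeq2 gave 0.014 for Tab1, 0.016 for Mapk14, 0.027 for Map2k4, 0.029 for Mapkapk2 and 0.087 for Dusp1. With reads outside genes as a covariate the list median relative to all genes was -0.996, against -0.57 without.

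The CXCL12 axis had 7 of 22 genes positive, 5 apart and lower (22.7%) and 1 higher. Cxcl12 was at 14.4, 0 and 0.123 CPM in the vehicle and 0.866, 1.59 and 0.826 CPM in the treated libraries, so most of its counts came from library 240, and its fitted log2 fold change, -2.15, turned positive without that library, where the vehicle group had almost no counts. Cxcr4 was at 75.1, 20.1 and 18.7 and 53.5, 71.8 and 68.7 CPM, and the groups overlapped. Grk6 and Grk2, kinases that switch off such receptors, were at 79.4, 194 and 99.8 against 45.4, 50.2 and 50.6 CPM and 151, 163 and 245 against 105, 87.5 and 107 CPM. Vav1, a signalling adaptor, was at 171, 214 and 243 and 87.4, 111 and 92.7 CPM (-1.11 ± 0.36). All 3 lay apart and lower.

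Glycolysis and several regulator lists were lower. Of 22 glycolysis genes 15 were negative and 9 lay apart and lower (40.9%), with a median of -0.63, or -0.44 relative to all genes with the length trend removed. Hk1, hexokinase, was at 95.8, 132 and 83 CPM and 35.1, 37.4 and 32.7 CPM (-1.56 ± 0.40), Pfkl, a phosphofructokinase, at 123, 173 and 259.7 and 61.8, 94.5 and 66 CPM (-1.32 ± 0.39), and Slc2a1, the glucose transporter, at 28.2, 48.9 and 39.8 and 15.3, 19.7 and 14.5 CPM (-1.24 ± 0.44). The list's median relative to all genes, -0.71, was -0.09 without libraries 253 and 265. In the list of TET and DNA methylation genes 12 of 14 were negative and 4 lay apart and lower, among them Dnmt1, the maintenance methyltransferase, at 198, 227 and 221 and 125, 106 and 101 CPM (-0.96 ± 0.29). Of 28 autophagy genes 9 lay apart and lower (32.1%), with Rb1cc1, which starts autophagosome formation, at 66.9, 67.4 and 58.3 and 30.0, 22 and 22.3 CPM (-1.37 ± 0.30). With reads outside genes as a covariate the medians relative to all genes were -1.23 for autophagy and -1.29 for glycolysis, against -0.61 and -0.71 without.

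**Figure D5:**
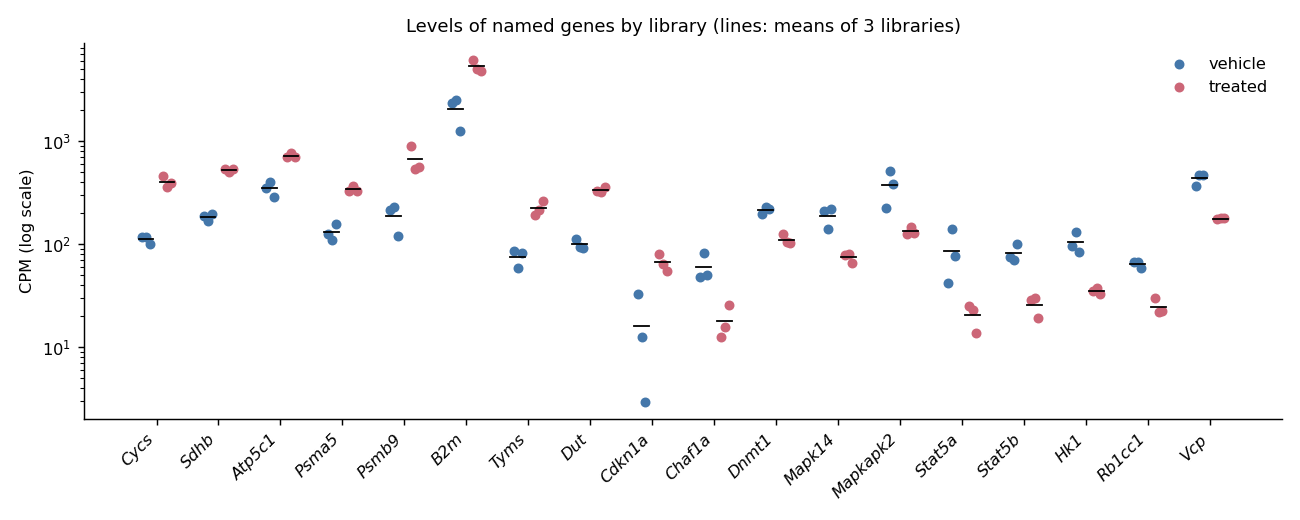
CPM (log axis) of 18 genes in each vehicle and treated library (points) with group means (lines). The first 9 genes, Cycs to Cdkn1a, lie higher and the last 9, Chaf1a to Vcp, lower in every treated library.

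Among the genes with the smallest p and a mean log2 CPM of at least 3, all 20 on each side had an edgeR adjusted p of 0.172, did not overlap between groups and were called by DESeq2. Because they were picked for a small p in the same counts, non-overlap, a DESeq2 call and large fold changes are favoured by the choice. The 20 higher genes had a median transcript length of 2492 bases and the 20 lower genes 5159 bases. Mcts1, a translation reinitiation factor, was at 57.7, 61.3 and 49 and 178, 173 and 187 CPM (1.68 ± 0.29), and Mtch2, an outer mitochondrial membrane insertase, at 88.2, 96 and 94 and 217, 308 and 266 CPM (1.51 ± 0.28). Ccs, the copper chaperone of superoxide dismutase, was at 24.4, 21.2 and 24.4 and 84.7, 103 and 74 CPM (1.90 ± 0.37). On the lower side, Kmt2d, a histone H3 lysine methyltransferase, was at 58.7, 66.3 and 93.5 and 21.9, 19.6 and 27.7 CPM (-1.66 ± 0.31), and Sipa1, a Rap GTPase activator, at 84.6, 179 and 166 and 27.8, 22.4 and 40.1 CPM (-2.25 ± 0.41). Relative to all genes with the length trend removed, the medians of the 20 and 20 were 1.44 and -1.46.

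Markers of other cell types differed between the groups in some lists. B lymphoid genes had a median of 3.69 (3.43 with the 5 members that had no vehicle count set at their bound over the floor of 3 counts), with 22 of 23 positive and 10 apart and higher (43.5%), but at low levels. Relative to all genes it was 3.61, and 2.13 without treated library 266, 5.34 without vehicle library 240 and 0.43 over the 6 members with a mean CPM of at least 10. Fcrla, a B cell Fc receptor-like gene, had no count in the vehicle libraries and was at 5.35, 4.92 and 2.63 CPM in the treated ones, at least 61.4-fold higher over a floor of 3 counts in the vehicle group. Rag2, which recombines antigen receptor genes, was at 0 in the vehicle libraries and 0.681, 2.81 and 6.92 CPM in the treated ones, at least 40.1-fold higher. In bulk RNA, fewer cells of a type and less RNA per cell cannot be told apart. The summed level of the B lymphoid list was 781 to 1289 CPM in the vehicle and 919 to 1426 CPM in the treated libraries and overlapped, of which Ighm made up 35.2 to 44.1% (454, 377 and 344 and 339, 531 and 558 CPM). In the T and NK list 21 of 29 were positive, and 6 lay apart and higher (20.7%) and 1 lower (3.45%), against 17.5% and 10.1% of all genes. Without vehicle library 240 these were 13 (44.8%) and 3 (10.3%), against 29.1% and 14.6% of all genes. Without vehicle libraries 253 and 265 they were 7 (24.1%) and 8 (27.6%), against 31.4% and 34.6% of all genes. The summed level of the T and NK list was 669 to 850.2 CPM in the vehicle and 1201 to 1843 CPM in the treated libraries. The list's defining marker Cd3e was at 0 in all vehicle libraries and 0.124, 0 and 0 CPM in the treated ones. Other members lay apart and higher, among them Cd8a, a T cell co-receptor chain, at 0, 0 and 0.123 and 10.5, 3.3 and 3.61 CPM and Klrb1c, an NK cell receptor, at 0 in every vehicle library and 0.433, 0.651 and 0.981 CPM. Vehicle libraries were shallower. With every library thinned to the shallowest, the medians relative to all genes were 4.25 for the 19 B lymphoid and 1.20 for the 27 T and NK members then tested, against 3.61 and 1.11 without thinning. The secondary granule list summed to 32700 to 89186 CPM in the vehicle libraries and 23009, 36007 and 160410 CPM in treated libraries 252, 262 and 266, so library 266 stood above the rest. Primary granule, monocyte and erythroid sums overlapped, at 15748 to 33694, 3265 to 7872 and 514 to 1625 CPM in the vehicle and 18302 to 36538, 5268 to 6820 and 1040 to 1253 CPM in the treated libraries.

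The same drugs in hosts with the Cxcl12-deleted niche gave a second contrast with its own vehicle libraries. The test of the difference between the niches called 0 of 16639 genes (percent called 0), the lowest adjusted p being 0.628, and 1050 genes (6.31%) had an unadjusted p under 0.05, so no gene is shown to respond differently. DESeq2 called 58 genes for the same difference and voom 0. In the deleted niche the median log2 fold change was 0.61 for nuclear oxidative phosphorylation, 0.45 for mitochondrial ribosomal proteins, 0.10 for the proteasome and 0.01 for mitochondrially encoded genes, against 1.08, 1.03, 0.82 and -1.44 in the intact niche. These medians are not corrected for length. The rho with transcript length was 0.26 and 0.22 in deleted-niche vehicle libraries 249 and 275. It was -0.26, 0.41 and 0.40 in treated libraries 257, 263 and 276, against -0.44 to -0.29 in the intact niche. Globin genes held 0.033 and 1.83% of gene counts in the former and 3.97, 2.84 and 10.5% in the latter deleted-niche libraries. The part of these measures in the niche difference was not tested. Mapk14 had -0.55 against -1.33, a difference of -0.78 ± 0.55 (adjusted p = 0.806). Cycs had 0.30 against 1.85, a difference of 1.56 ± 0.56 (adjusted p = 0.767), and Stat5a -0.40 against -2.06, a difference of -1.66 ± 0.79 (adjusted p = 0.767). These differences did not pass the test, which with 2 to 3 libraries a group does not show that the niches respond alike.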

How the data were processed

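The members and gene lists were chosen with earlier results of these data known. The authors deposited raw counts of reads per gene, made from SMARTer Ultra Low Input and Nextera XT libraries per the labels' protocols. The submitters' processing notes name GRCm39, STAR 2.7.9a, HTSeq and Trim Galore (both listed as 0.6.7), DESeq2 and bcl2fastq; annotation and strand setting are not given in the sources used here. The kits do not keep strand. The table's 53700 genes were used without its 5 summary lines. Symbols (52093 genes) and exon-union lengths came from a GRCm38 annotation. In R 4.3.3, genes kept by filterByExpr on 4 groups (16639) were scaled by TMM and fitted over all 11 libraries with edgeR 4.0.16 (quasi-likelihood, robust); the biological coefficient of variation was 0.783. SE is the absolute log2 fold change over the square root of F. A symbol with 2 IDs used the ID with more reads. Depth was 8.13 to 31.1 M counts, without molecular identifiers, so the floor of 3 counts covers counting error only. In simulated counts for this comparison (15755 genes), 100 genes were changed 4-fold and 100 changed 16-fold, all with a mean CPM of at least 10. At the spread estimated from these data, 36% and 92% were called, with 3 false calls. The simulation held no length trend, and recovery of genes at lower levels was not tested. Named genes were the 20 smallest p each way with a mean log2 CPM of at least 3, up to 4 of each of 44 lists, and 20 fixed genes; further examples were chosen after their values were seen. DESeq2 1.42.0, limma 3.58.1 voom, other scalings, filters, a covariate, a length offset, thinning and left-out libraries were alternatives.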

Additional observations from a re-analysis of the deposited data

How the results depend on the processing

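No paired analysis was possible because the library numbers are not shared between groups. The count of called genes, 0, stayed 0 under DESeq2 size factors, upper-quartile scaling, a filter at a mean CPM of 10, limma voom, no robust option, only the 6 WT libraries, thinning, the length trend removed and leaving out 253 and 265 together. It was 215 with no filter (107 higher, 108 lower), 1069 with DESeq2 (499 and 570, with 1896 adjusted p not given) and 2100 with the covariate (970 and 1130), which shared 640 calls with DESeq2. Leaving out 1 library gave 0 to 190 calls, with 0 to 156 higher and 0 to 34 lower, and all above 0 came without vehicle library 240. Genes at an unadjusted p under 0.05 numbered 1608 without 253 and 265 and 1936 without treated library 252, against 3035. For the difference between niches, DESeq2 called 58 and leaving out 1 library gave 0 to 1, against 0. The causes were not tested.

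Added after seeing the data were the length correction combined with leaving out 253 and 265 (0 calls, 1682 at an unadjusted p under 0.05) or with voom (1 call, lower), and a first form of the length correction, fitted on all genes and not centred (0 calls, 3190 at an unadjusted p under 0.05). That form moved the median of all genes from 0.09 to -0.46, and was replaced after this was seen by a centred trend fitted on genes with a mean CPM of at least 10 (median -0.25). Counts of non-overlapping members without 240, 253 and 265, or 266 were added likewise.

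Of 924 list values relative to all genes, 718 moved by less than the spread between libraries of a group, whatever their sign, 191 moved further, and 15 moved further and changed the sign of a value that had exceeded that spread. Counted at any size, 81 values in 22 of the 44 lists changed sign, among them interferon-stimulated, p53, BCL2 and stem cell surface genes without 253 and 265 (-0.45, -0.23, -0.27 and -0.33). Leaving out 1 library gave 0.73 to 1.10 for nuclear oxidative phosphorylation, 0.68 to 1.02 for mitochondrial ribosomal proteins, 0.46 to 0.85 for the proteasome, -0.71 to -0.38 for p38, -1.23 to -0.31 for glycolysis and 0.75 to 1.73 for MHC class II. With the length trend removed, NRF2 was -0.14 and TGF-beta 0.11. Combined with leaving out 253 and 265, MHC class I was -0.035, megakaryocyte -0.13, T and NK -0.16 and cytosolic ribosomal proteins -0.11. Combined with voom, mast cell genes were -0.12, cytosolic ribosomal proteins -0.17, NRF2 -0.19 and TGF-beta 0.15. In the uncentred form NRF2 was -0.28. Leaving out 1 library took NRF2 from -0.19 (without vehicle library 240) to 0.50, and it was -0.10 without treated library 266. Megakaryocyte genes were -0.022 at a mean CPM of 10 and -0.30 without 253 and 265.

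Among 110 genes whose log2 fold change exceeded its SE and whose groups each had over 3 counts, 2283 of 2307 values (not relative to all genes) kept their direction and 24, in 14 genes, reversed. For 31 further genes below those limits, such as Flt3, Samhd1, Mdm2 and Mcl1, 77 of 635 values, in 20 genes, changed sign. The 24 reversals among the 110 genes follow by setting. In the uncentred form the reversed genes were Pcna (-0.20), Gstp1 (-0.20), Bax (-0.26), Cxcr4 (-0.25), B2m (-0.10), H2-K1 (-0.062), Cd74 (-0.18), Psma5 (-0.016), Cd48 (-0.091), Dctpp1 (-0.13) and Atp5c1 (-0.23). With the length trend removed Cxcr4 was -0.14 and Dctpp1 -0.12. Combined with leaving out 253 and 265, Cxcr4 was -0.9998, Cd74 -0.69, Cd48 -0.40 and Dctpp1 -0.015. Combined with voom, Cxcr4 was -0.21, Cxcl12 0.095, Ly6g -0.47 and Dctpp1 -0.14. Leaving out 1 library took Dck from -0.90 to 0.052 and Cxcl12 from -2.74 to 4.37, both positive without vehicle library 240, and without 253 and 265 Cxcr4 was -0.10. Of the 110 genes, 50 passed the threshold with DESeq2 and 74 with the covariate. Of all 16639 genes, 1069 (6.42%) and 2100 did. Many of the 110 were named for a small p in these data, and all for exceeding their SE. That selection favours high counts and kept directions.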
